A study of Rattus norvegicus with 3 samples.

Results

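The cells described are the microglia of injured rat spinal cord, 808 of 5815 cells that passed the filter on genes and mitochondrial UMIs, in 3 single-cell RNA libraries. They are a class cut from a score and not a cluster. A cell counted as a phagocyte when Csf1r, Cd68 and Tyrobp together held at least 10 of every 10000 UMIs (unique molecular identifiers, 1 per captured RNA molecule), S100a8 and S100a9 together under 100, and Top2a fewer than 2 UMIs. Each of 2959 phagocytes then received 4 scores, the mean z of log levels over 4 genes each: set A (Tmem119, P2ry12, Gpr84, Slc2a5), set B (Mmp12, Fabp4, Fabp5, Pla2g7), set C (Cd8a, Ms4a4e, Hpgds, Siglec1) and set D (RT1-Db1, RT1-Ba, Clec10a, Lyve1). Cells with A highest were taken as microglia. The cells were thus chosen by measured levels of these genes in the same libraries, so those levels, and any gene set against the other phagocytes, are descriptions with no test.

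All animals were wild-type rats aged 6 to 8 weeks with a spinal cord injury and an injection at the injury site. The agent was PBS, G-HD or MPG-HD, the 2 abbreviations being the submitters' own; the series title speaks of a hydrogel depot, and PBS was taken as the control. Cells came from a 5-mm piece of cord around the lesion, from 5 animals per condition, and each condition has 1 library. None of the sources used here gives the strain, the time after injury or how animals were pooled, and no uninjured cord was analysed here. With 1 library per treatment there are no replicates, so no test was possible, and every interval below (95%) covers counting error only.

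Microglia are the resident macrophages of the brain and spinal cord. They arise from early embryonic precursors, depend on signalling through the Csf1 receptor, and keep a resting identity under the transcription factor Sall1. After injury they share the tissue with macrophages that come from blood monocytes, and many genes for lysosomes, complement and lipid uptake are then used by both. Type I interferons, a family of antiviral cytokines, switch on a shared set of genes in almost any cell that senses them, and microglia are among the cells known to do so after damage.

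The 4 genes of set A mark microglia in several ways: Tmem119 is a membrane protein of unsettled role, P2ry12 a receptor for ADP that guides their processes, Gpr84 a receptor for medium-chain fatty acids and Slc2a5 a fructose transporter. Levels are given in CPM, a gene's UMIs over the summed cells scaled to a fixed total, the same for each library. Tmem119 stood at 238, 296 and 254 CPM in the microglia of PBS, G-HD and MPG-HD. P2ry12 stood at 40.3, 31.4 and 24.1 CPM, Gpr84 at 274, 304 and 244 CPM, and Slc2a5 at 132, 171 and 138 CPM. P2ry12 was thus highest in PBS and lowest in MPG-HD, and the other 3 were highest in G-HD. At a matched depth of 2000 UMIs per cell, Tmem119 was found in 32.9%, 40.1% and 35.5% of microglia, against 4.33%, 2.58% and 3.92% of the other phagocytes and 0%, 0% and 2.04% of cells with T cell markers, a type that should lack it. Median depths before thinning were 10874, 10749.5 and 11692 UMIs in microglia and 3716, 3255 and 3470 in the T-marker cells, of which 39, 97 and 49 reached the matched depth. Without thinning, a Tmem119 UMI was found in 78.7%, 74.4% and 81.7% of microglia. A cell without a UMI of set A could not have A highest. By the rule, then, every microglial cell held a UMI of at least 1 of the 4 genes, and 44, 40 and 41 cells held all 4.

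Of the 808 cells, 120 had A less than 0.25 above the next score, and 265 phagocytes lay as close on the other side. The cells just inside had a median depth of 12918 UMIs and medians of 3.09 set A and 4.15 set C UMIs per 10000. Those just outside had a median depth of 2588 UMIs and a median of 0 for all 4 sets. Sall1 stood at 17.6 CPM just outside, 26.3 CPM just inside and 49.7 CPM in the cells beyond the margin. Cx3cr1, the receptor for neuronal fractalkine, stood at 41.1, 63.0 and 99.8 CPM in that order. Other microglial genes were not graded this way: Gpr34, a lysophospholipid receptor, stood at 24.1, 20.2 and 32.0 CPM, and Olfml3 at 16.3, 15.9 and 1.37 CPM. The 265 cells just outside included 129 that held no UMI of any of the 16 genes, and all 129 had D highest. Their median depth was 1309 UMIs.

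Microglia made up a smaller part of the G-HD suspension than of the other 2. PBS gave 239 of 719 phagocytes (33.2%, exact interval 29.8 to 36.8), G-HD 246 of 1191 (20.7%, 18.4 to 23.1) and MPG-HD 323 of 1049 (30.8%, 28.0 to 33.7). As a share of all cells kept the values were 17.4% (15.4 to 19.5), 10.5% (9.27 to 11.8) and 15.4% (13.9 to 17.1). The G-HD share was 0.604 times the PBS share among all cells and 0.621 times among phagocytes, and the G-HD interval met neither of the others. MPG-HD stood at 0.890 and 0.926 times PBS, with overlapping intervals. Set B had the most cells in G-HD (458 of its phagocytes, against 168 in PBS and 233 in MPG-HD). A share says nothing of the number of microglia in the cord, since digestion and the other cells of the suspension also set it.

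**Figure D1:**
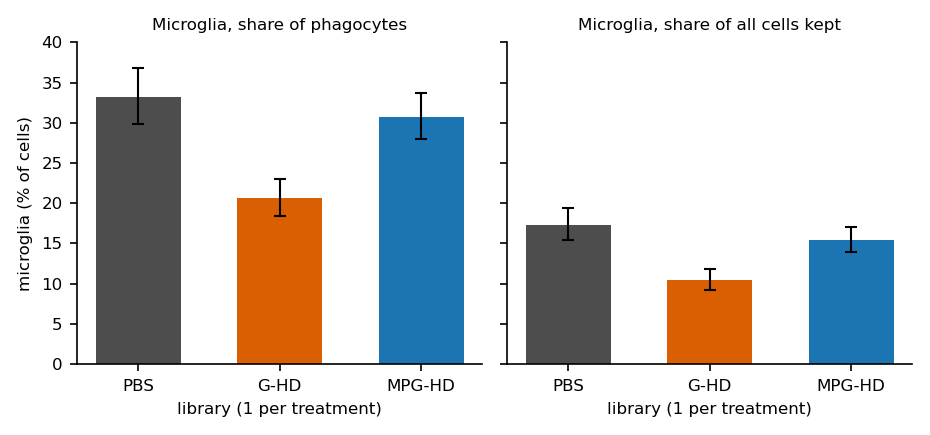
Microglia as a percentage of phagocytes (left) and of all cells kept (right) in the PBS, G-HD and MPG-HD libraries, 1 library each; bars are shares and lines exact 95% binomial intervals for counting error. G-HD is lowest in both panels, at 20.7% and 10.5%.

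Sequencing gave 16081082 UMIs over 1513 barcodes for PBS, 26289759 over 2619 for G-HD and 23988263 over 2339 for MPG-HD. The microglia held 2652236, 2518963 and 3772581 of these UMIs. Between 5 and 8 barcodes were shared by each pair of libraries, none of them between microglia. Microglia were close in depth across libraries, with medians of 2344, 2335 and 2429 genes and 3.82%, 2.96% and 3.34% mitochondrial UMIs. Outside the phagocytes, the G-HD library was richer in neutrophil markers, 3986 CPM summed over 15 genes against 588 in PBS and 112 in MPG-HD. In microglia the same sum was 50.9, 65.1 and 45.9 CPM, with 8, 8 and 10 of the 15 genes at 0.

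The label was checked on genes that the rule did not use. Sall1 stood at 51.3, 32.6 and 49.8 CPM in microglia and at 4.81, 2.21 and 5.68 CPM in the other phagocytes. Cx3cr1 stood at 101, 92.1 and 88.3 CPM against 15.5, 11.3 and 13.4. Sparc, a matrix-binding glycoprotein that microglia secrete, stood at 1264, 1332 and 1214 CPM against 142, 121 and 184. Golm1, Ltc4s, Slco2b1, Gpr34, P2ry13, Mef2c and Bin1 were also higher in microglia in each library. Sparc was higher still outside the phagocytes, at 2683, 2573 and 2277 CPM, and Sall1 stood there at 15.5, 13.95 and 18.2 CPM. Bin1 was higher there as well, at 516, 279 and 577 CPM against 103, 118 and 115 in microglia. Other genes often used as microglial markers were nearly absent: Olfml3 had 4, 3 and 29 UMIs, Selplg 3, 6 and 4, Crybb1 0, 1 and 0, and Siglech 0 in each library.

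Genes of blood-derived and border macrophages were low. Cd163, a haemoglobin scavenger receptor of border macrophages, had no UMI in microglia, and F13a1 had 0, 2 and 0. Mrc1, a mannose receptor, stood at 12.4, 23.8 and 19.9 CPM, against 96.0, 108 and 129 CPM in the other phagocytes. Lyz2, the lysozyme of monocytes and macrophages, stood at 3101, 2911 and 2216 CPM against 15281, 18352 and 10113. Markers of neurons summed to at most 1.98 CPM and those of T cells to at most 7.69 CPM. Oligodendrocyte markers summed to 461, 345 and 409 CPM in microglia and to 33185, 18770 and 37849 CPM outside the phagocytes, none of the 12 genes being at 0. Of the microglia, 12 held at least 3 UMIs of the defining markers of another cell type (3, 4 and 5). Free RNA or doublets as a source of these UMIs was not tested.

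**Figure D2:**
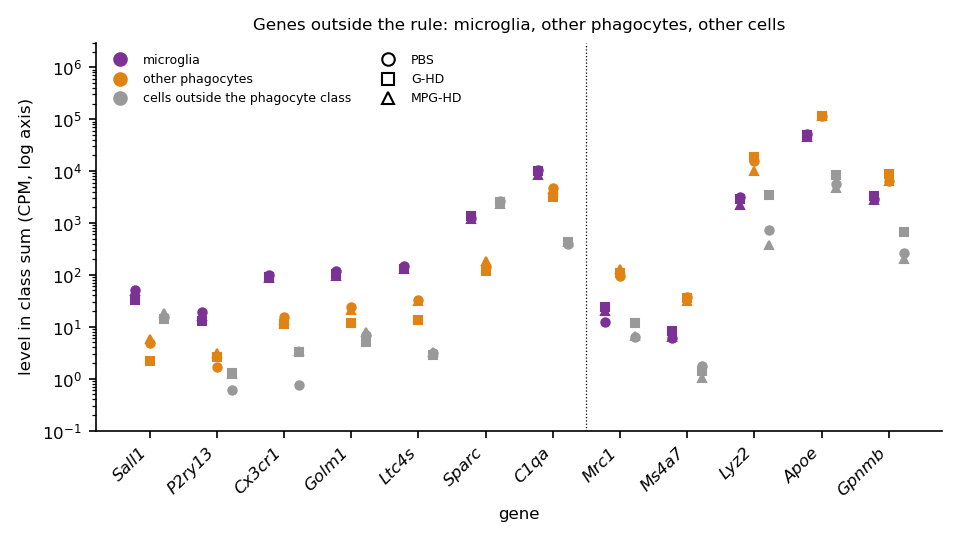
Levels of 12 genes outside the rule in summed microglia, other phagocytes and cells outside the phagocyte class, in CPM on a log axis; marker shapes are the 3 libraries. The 7 genes left of the dotted line (Sall1 to C1qa) are higher in microglia than in other phagocytes in each library, and the 5 to the right (Mrc1 to Gpnmb) are lower.

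Against the other phagocytes, 239 of 6872 genes measured (3.48%) were at least 2-fold higher in microglia in each of the 3 libraries and 306 (4.45%) at least 2-fold lower. Because the cells were chosen within the same data, these genes describe the class. Spint1, an inhibitor of membrane serine proteases, was 15.8-, 17.6- and 10.5-fold higher. The central complement component C3 followed with 161, 125 and 121 CPM against 13.7, 10.1 and 13.1. Il23a, a subunit of the cytokine interleukin 23, stood at 70.5, 67.1 and 33.7 CPM against 7.30, 4.21 and 4.82. Mmp2, a gelatinase, stood at 41.1, 54.8 and 85.1 CPM against 4.66, 9.35 and 13.1, and the chemokine Ccl4 at 1615, 2767 and 1783 CPM against 299, 381 and 485. Anxa3, Id1, Edn3, Hivep3, Pld4 and Gal3st4 were also among the 20 leading genes. Outside the phagocytes Mmp2 and Id1 were higher than in microglia, at 112, 134 and 96.3 CPM for Mmp2 and 207, 149 and 187 CPM for Id1. On the low side, S100a11, a calcium-binding protein, stood at 11.3, 28.6 and 19.1 CPM against 1199.5, 1319 and 1135. The galectin Lgals1, the protease inhibitor Slpi and the collagenase Mmp8 were likewise at least 20-fold lower in each library. Apoe, the main lipid carrier of the cord, was abundant in both, at 51502, 50461 and 44483 CPM in microglia and 114120, 112650 and 112910 CPM in the other phagocytes.

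The first comparison asked how microglia of the G-HD library differed from those of PBS. Interferon response genes were the list with the most genes higher: 22 of 34 measured were at least 1.5-fold higher in G-HD and none was lower, with a median log2 ratio of 0.86. Of all 5748 genes measured (those with 50 or more UMIs over the pair of sums), 5.95% were that much higher and 3.91% that much lower, with a median of 0.033. Ifit3, which takes part in blocking viral RNA, stood at 6.03 CPM in PBS, 83.4 CPM in G-HD and 27.8 CPM in MPG-HD. Isg15, a ubiquitin-like modifier, stood at 36.6, 201.7 and 55.1 CPM. G-HD was the highest of the 3 libraries for both genes, and MPG-HD lay between.

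Promoters of some of these genes are shown because the genes stood higher together. The RefSeq table (build GRCr8) held windows of 300 bases around the start for 32 of the 46 listed interferon response genes, and 22 of the 32 held the core of the interferon-stimulated response element on either strand. The core searched was a pair of GAAA runs with 2 bases of any kind between them. It was found in 3.92% of all 33469 windows. Among the 22 genes higher in G-HD, 12 had a window and 8 of these held the core, so its share was 66.7% in them and 68.8% in the whole list. A match is a run of letters and not a shown binding site. Each sequence below runs 5′ to 3′ on the gene's strand and ends at or before the start, with the core or its reverse complement in capitals.
Ifit3, chr1:241527257-241527316, + strand: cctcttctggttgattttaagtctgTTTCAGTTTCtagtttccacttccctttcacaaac
Ifitm3, chr1:205541768-205541827, - strand: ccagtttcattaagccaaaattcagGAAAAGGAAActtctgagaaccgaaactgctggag
Irf7, chr1:205800058-205800117, - strand: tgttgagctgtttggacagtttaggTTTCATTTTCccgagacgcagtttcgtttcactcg
Gbp2, chr2:234005671-234005726, + strand: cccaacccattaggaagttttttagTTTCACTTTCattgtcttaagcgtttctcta
Oasl2, chr12:47383302-47383361, - strand: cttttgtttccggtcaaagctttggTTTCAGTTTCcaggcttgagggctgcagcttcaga

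Ifitm3, a membrane protein that hinders virus entry, had 13 UMIs in PBS microglia, 199 in G-HD and 152 in MPG-HD, or 4.90, 79.0 and 40.3 CPM. Its G-HD level was 16.1-fold that of PBS (9.21 to 30.8), and Ifit3 followed at 13.8-fold (8.31 to 24.6), Ifit2 at 6.16-fold (4.08 to 9.64), Isg15 at 5.51-fold (4.43 to 6.92) and Usp18, a protease that removes Isg15, at 4.39-fold (2.93 to 6.77). With every cell weighing the same Ifit2 stood at 2.81-fold, and after thinning Isg15 stood at 3.62-fold. The GTPases Mx1 and Mx2 stood at 278 and 139 CPM in G-HD, 3.02- and 3.54-fold those of PBS. The transcription factors of the pathway were higher too: Irf7 by 2.31-fold (1.76 to 3.06) and Irf9 by 2.11-fold (1.28 to 3.55). Cxcl10, an interferon-induced chemokine for T cells, did not follow, at 98.8 CPM in PBS and 77.0 in G-HD, a ratio of 0.780 (0.644 to 0.942), and 1 PBS cell held 75 of its 262 UMIs. Ifit, Ifitm and Oas genes have close copies, and no source used here says how reads were shared between copies, so single members of these families are uncertain.

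**Figure D3:**
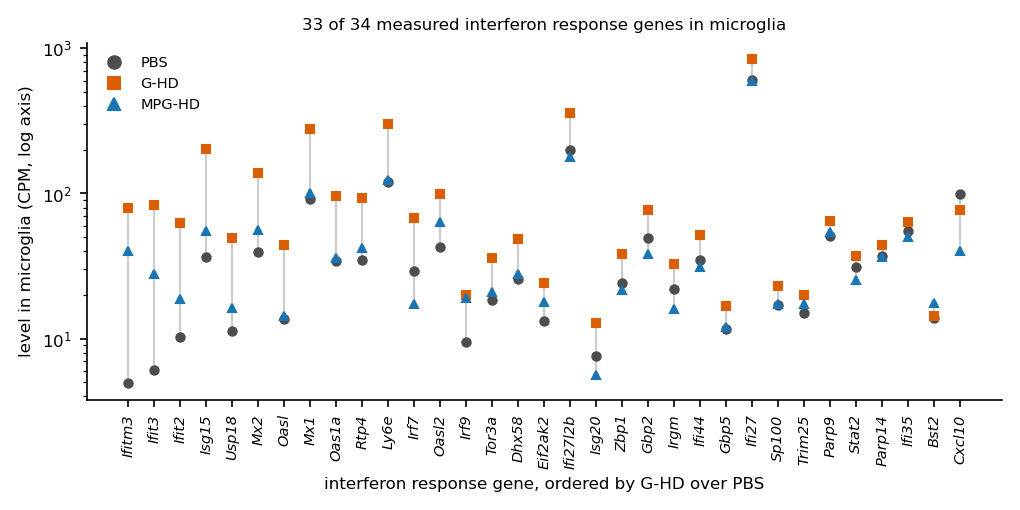
Levels of 33 of the 34 measured interferon response genes in microglia of the 3 libraries, in CPM on a log axis, ordered from the highest to the lowest ratio of G-HD over PBS; grey lines join the libraries. G-HD is above PBS by at least 1.5-fold in 21 of the genes drawn, and Cxcl10, at the right end, is lower in G-HD than in PBS.

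The same list was higher in G-HD outside the microglia as well. In the other phagocytes 19 of 34 were at least 1.5-fold higher (median log2 0.62), and outside the phagocytes 25 of 34 (median 0.76). Ifitm3 was 2.46-fold and 1.42-fold higher there, Ifit3 5.63- and 2.65-fold, and Isg15 2.49- and 2.95-fold. Mx1 was 1.64-fold there and 4.21-fold outside the phagocytes. Whether the size of the difference departs between these classes could not be tested with 1 library per treatment.

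Most microglia of G-HD carried somewhat more of these RNAs, and a minority carried many. At 2000 UMIs per cell, the median microglial cell held 3 UMIs of the listed genes in PBS (quartiles 1 and 5), 5 in G-HD (3 and 10) and 3 in MPG-HD (1 and 5). At least 10 such UMIs were found in 16 of 231 cells in PBS (6.93%), 57 of 222 in G-HD (25.7%) and 25 of 310 in MPG-HD (8.06%). Cells with none were 9.96%, 2.70% and 10.0%. The highest cell held 31, 62 and 25. In G-HD, Isg15 was found in 12 of 18 microglia with an Ifit3 UMI (66.7%) and in 24 of 204 without one (11.8%), at equal depth. In MPG-HD the values were 7 of 12 and 17 of 298. Isg15 itself was found at this depth in 7.36%, 16.2% and 7.74% of microglia, in 12.8%, 32.0% and 26.5% of T-marker cells and in 0%, 3.49% and 0.783% of cells with oligodendrocyte markers (median depths 12188, 11465.5 and 12350 UMIs).

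**Figure D4:**
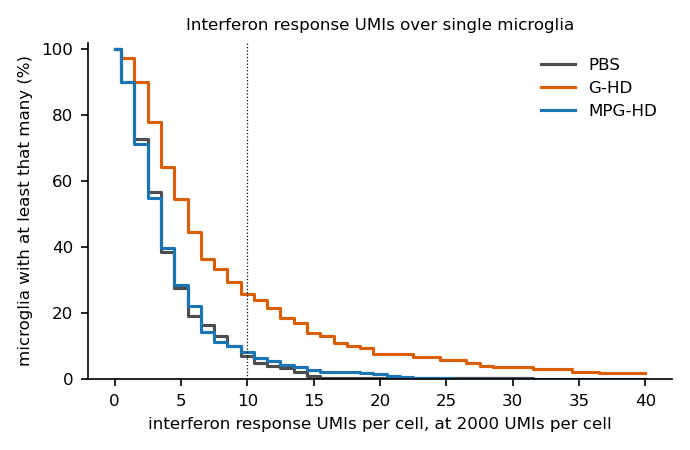
Percentage of single microglia (vertical axis) that hold at least a given number of interferon response UMIs (horizontal axis) after thinning to 2000 UMIs per cell, for 231 PBS, 222 G-HD and 310 MPG-HD cells; the dotted line marks 10 UMIs. At that line the curves stand at 6.93%, 25.7% and 8.06%, and the G-HD curve lies above the others from 1 to 40 UMIs.

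Class II antigen presentation genes were higher in G-HD microglia. These genes present peptides to helper T cells, and 2 of them, RT1-Db1 and RT1-Ba, belong to set D of the rule, so cells rich in them tended to be left out of the microglia. Of 5 measured outside the rule, 3 were at least 1.5-fold higher (median log2 1.65), against 5.95% of all genes measured. Cd74, the invariant chain that escorts class II molecules, stood at 150.8, 473 and 88.8 CPM, a ratio of 3.14 (2.80 to 3.52) for G-HD over PBS. RT1-Da had 106, 355 and 83 UMIs, a ratio of 3.53 (2.83 to 4.42). RT1-Bb had 11, 73 and 23 UMIs, a ratio of 6.99 (3.68 to 14.6), or a log2 ratio of 3.86 in place of 2.80 after thinning. Ctss, the protease that trims the invariant chain, was lower, at 948 and 651 CPM, and Ciita, the master regulator, had no UMI in any library. In the other phagocytes, where class II levels were higher, the G-HD ratios were 0.809 for Cd74 and 0.682 for RT1-Da, and outside the phagocytes 2.19 and 2.71.

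Few cells carried this signal. In G-HD, 20 microglia with at least 10 Cd74 UMIs (a bound chosen after the values were seen) held 83.4% of all Cd74 UMIs, in PBS 13 cells held 65.3% and in MPG-HD 10 cells held 69.0%. Sall1 stood in these cells at 17.9 CPM in PBS, 30.2 in G-HD and 62.6 in MPG-HD, against 53.5, 32.8 and 49.3 CPM in the remaining microglia. Lyz2 stood at 5522, 2762 and 1406 CPM against 2938, 2926 and 2248, and Mrc1 had no UMI in these cells of any library. In these sums the Cd74-rich cells of PBS were lower in Sall1 and higher in Lyz2 than the rest. Those of G-HD were close to the rest in both, and those of MPG-HD were higher in Sall1 and lower in Lyz2. With 13, 20 and 10 cells, the Sall1 levels rest on few UMIs and carry no interval, and these differences were not tested. Cd74 was found in 16.0%, 22.1% and 9.35% of microglia at matched depth in 12.8%, 12.4% and 14.3% of T-marker cells and in 0.990%, 1.16% and 1.04% of cells with oligodendrocyte markers. In the remaining G-HD microglia Cd74 stood at 86.6 CPM, against 55.9 in PBS and 28.7 in MPG-HD. Of 16 class I genes measured, 2 were at least 1.5-fold higher in G-HD, RT1-N3 and RT1-S3, against 5.95% of all genes measured. B2m, the common light chain, stood at 4913, 5128 and 4470 CPM. The RT1 genes are near-identical copies, and single members are uncertain.

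Heat shock chaperones were lower in G-HD in part. Of 20 measured, 5 were at least 1.5-fold lower and none higher, and the median log2 ratio of the list was 0.013. At the same bound 3.91% of all genes measured were lower and 5.95% higher. Hspa1b, the stress-induced HSP70, had 342 UMIs in PBS, 11 in G-HD and 120 in MPG-HD, or 129, 4.37 and 31.8 CPM. The ratio of G-HD to PBS was 0.0339 (0.0167 to 0.0614). Its helper Dnaja1 stood at 584, 258 and 470 CPM, with a ratio of 0.442 (0.403 to 0.485). Bag3 (0.363) and Chordc1 (0.394), both co-chaperones, and Dnajb1 (0.491) were also lower. Hspa8 and Hsp90aa1 stayed within 1.5-fold of PBS: Hspa8 stood at 1959, 1884 and 1873 CPM and Hsp90aa1 at 367, 432 and 395 CPM. Hspa1b and Dnaja1 were lower in G-HD in the other phagocytes too, at 0.144 and 0.642, and outside the phagocytes at 0.581 and 0.884. Tissue digestion is known to induce these genes; handling of the 3 preparations cannot be told apart from the treatment. The heat shock element was searched on both strands as GAA, TTC and GAA with 2 bases of any kind between neighbours. It was found in 6 of 21 listed genes with a promoter window (Chordc1, Dnaja1, Hspa8, Hspd1, Hspe1 and Hsph1) and in 0.798% of all windows. Of the 5 chaperones lower in G-HD, 4 had a window and 2 of these held the element, Chordc1 and Dnaja1. Hspa1b had no window.

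In G-HD microglia 1.43% of genes were at least 2-fold higher and 0.852% at least 2-fold lower, and 69 and 43 of them met the conditions for being named, of which the first 10 each way were taken. The first 10 higher were the interferon and class II genes given above plus RT1-T24-4. Among the first 10 lower, Myc, a transcription factor of growth, stood at 63.3, 18.3 and 28.4 CPM, with a ratio of 0.288 (0.203 to 0.402). Hs6st1, which sulphates heparan sulphate, stood at 24.1, 6.35 and 16.7 CPM, and Plaur, the urokinase receptor, at 39.97, 16.3 and 19.9 CPM. Rhox5, a homeobox gene best known from the testis, stood at 32.1, 5.16 and 6.36 CPM, and the log2 ratio of G-HD to PBS ranged from -3.94 to -1.96 over the settings tried, -3.41 without its top cells.

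Cyp2d3 and Fam111a were among the genes with the widest range over the 3 libraries. Cyp2d3, a cytochrome P450, had 106, 12 and 388 UMIs, or 39.97, 4.76 and 103 CPM. A UMI was found in 31.8% of PBS, 2.85% of G-HD and 63.2% of MPG-HD microglia, and at matched depth in 5.63%, 1.35% and 18.7%, against 0% of T-marker cells in each library. The ratio of G-HD to PBS was 0.119 (0.0597 to 0.217) in microglia and 0.857 in the other phagocytes, and after thinning the log2 ratio in microglia was -2.06 in place of -3.07. MPG-HD over PBS was 2.57 (2.07 to 3.22) in microglia and 3.58 in the other phagocytes. The Cyp2d genes are close copies, and this assignment is uncertain. Fam111a, a protease gene linked to restriction of viral replication, had 271, 89 and 21 UMIs, or 102.2, 35.3 and 5.57 CPM. It was lower in both treated libraries, at 0.346 (0.269 to 0.441) in G-HD and 0.0545 (0.0332 to 0.0850) in MPG-HD. The ratios were 1.19 and 0.629 in the other phagocytes and 2.31 and 0.523 outside the phagocytes. The MPG-HD level was thus below that of PBS in each of these classes, and furthest below in microglia. Both genes were spread over cells, the top cell holding 4 of 106 Cyp2d3 UMIs and 12 of 271 Fam111a UMIs in PBS. Differences between animals cannot be told apart from treatment here.

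The second comparison set MPG-HD microglia against the same PBS library, so its ratios share the PBS values with those above. Over 6221 genes measured, 3.78% were at least 1.5-fold higher and 3.94% lower, with a median log2 ratio of 0.000671. Of 34 interferon response genes, 5 were higher (Ifit2, Ifit3, Isg15, Irf9 and Ifitm3) and 2 lower (Irf7 and Cxcl10), with a median of 0.091. Ifitm3 stood at 8.22-fold (4.67 to 15.8), Ifit3 at 4.61-fold (2.71 to 8.37) and Isg15 at 1.51-fold (1.18 to 1.94) of PBS. Irf7 stood at 17.2 CPM, 0.586-fold (0.415 to 0.825), and Cxcl10 at 40.3 CPM, 0.408-fold (0.332 to 0.500). In the other phagocytes 10 of 34 were higher and none lower, with Irf7 at 1.38 and Cxcl10 at 1.42. One cell held 44 of the 152 Ifitm3 UMIs of MPG-HD and one held 33 of the 105 Ifit3 UMIs, and without the 12 cells carrying markers of other types the log2 ratio of Ifitm3 was 2.07 in place of 3.04. It was 1.75 with A at least 0.25 above the next score, and with every cell weighing the same Ifit3 stood at 2.58-fold.

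RT1-Da and Cd74 were lower in MPG-HD microglia. Of 4 genes of class II presentation measured, RT1-Da (0.550, 0.408 to 0.741), Cd74 (0.589, 0.508 to 0.682) and the protease Ctss (0.488, 0.459 to 0.519) were at least 1.5-fold lower (median log2 -0.81). The class II gene RT1-Bb went the other way, at 4.15 CPM in PBS and 6.10 in MPG-HD, but its 11 and 23 UMIs were too few to count as measured. Ctss was lower in the other cells too, at 0.553 in the other phagocytes and 0.554 outside the phagocytes. Of 16 class I genes 2 were lower, RT1-A2 and RT1-CE10, and 1 was higher, RT1-N3. RT1-A2 stood at 2302, 2103 and 1144 CPM, a ratio of 0.497 (0.478 to 0.517) in MPG-HD microglia and 0.995 in the other phagocytes. RT1-T24-3 stood at 233, 320 and 112 CPM. Of 21 heat shock chaperones, 2 were lower, Hspa1b at 0.247 (0.199 to 0.305) and Dnajb1 at 0.513 (0.434 to 0.606), and 2 higher, Hsf1 and Cryab. Beside these counts, 3.78% of all genes measured were at least 1.5-fold higher in MPG-HD and 3.94% lower.

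Genes at least 2-fold higher were 0.884% and those lower 0.772%, with 39 and 44 meeting the conditions for being named. Abcb10, a mitochondrial transporter, had 24, 70 and 151 UMIs, with an MPG-HD ratio of 4.42 (2.86 to 7.12), and was also higher in the other phagocytes, at 3.21. Without the 6% of cells with the most UMIs its log2 ratio was 2.75 in place of 2.15. Il1r2, the decoy receptor for interleukin 1, had 15, 42 and 79 UMIs, a ratio of 3.70 (2.11 to 6.93), against 4.42 in the other phagocytes. Enpp6, a choline phosphodiesterase known from newly forming oligodendrocytes, had 18, 20 and 107 UMIs, a ratio of 4.18 (2.52 to 7.32), with at most 5 UMIs in 1 cell. Oligodendrocyte precursor markers, a list that holds Enpp6, summed to 32.0, 40.9 and 63.4 CPM in microglia (4, 1 and 3 of 11 genes at 0). Enpp6 itself gave 6.79, 7.94 and 28.4 CPM of these sums. Its MPG-HD ratio outside the phagocytes was 1.10. The part of precursor RNA in this result was not tested. Col1a1 and Id3 were named too, but 41 of 98 and 42 of 95 of their UMIs in MPG-HD lay in 1 cell. Without the cells carrying other types' markers, their log2 ratios were 0.17 in place of 2.30 and 0.81 in place of 1.89. Fibroblast markers summed to 19.98, 66.3 and 69.7 CPM in microglia (3, 1 and 1 of 9 genes at 0) and to 5491, 5578 and 4202 CPM outside the phagocytes. Among the lower genes, Rgcc, a cell cycle regulator, stood at 103, 54.4 and 38.7 CPM, and Gdf15, a stress-induced cytokine, at 33.6, 14.7 and 12.5 CPM.

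In the third comparison, MPG-HD against G-HD, interferon genes were again the group with the most genes apart. Of 36 measured, 22 were at least 1.5-fold lower in MPG-HD and 1 higher (Igtp), with a median log2 ratio of -0.83. Over all 6209 genes measured, 4.77% were that much lower and 3.4% higher. For class II genes, 3 of 5 were lower and the median was -2.25, and Cd74 stood at 0.188 (0.166 to 0.212). In the other phagocytes 5 of the 36 interferon genes were lower (median -0.10) and Cd74 stood at 1.03. Outside the phagocytes 24 of 36 were lower (median -0.72), as were 5 of 5 class II genes (median -1.46), with Cd74 at 0.363. Heat shock genes were higher in 4 of 21, with Hspa1b at 7.28-fold (3.93 to 15.0). Cyp2d3 was 21.6-fold higher (12.2 to 42.1). Genes at least 2-fold higher were 0.709% and those lower 1.03%, with 31 and 56 meeting the conditions for being named. Cox6b2, a testis form of a respiratory chain subunit, had 32, 19 and 92 UMIs, a ratio of 3.23 (1.96 to 5.61), or a log2 ratio of 2.52 in place of 1.69 after thinning. Gstm5 had a log2 ratio of 2.28, or 0.10 after thinning and 0.71 without the cells carrying other types' markers, and 24 of its 51 UMIs lay in 1 cell.

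Genes of the resting identity of microglia passed 1.5-fold at a share near that of all genes. Of 21 homeostatic genes measured outside the rule, none was at least 1.5-fold higher in either treated library over PBS and 1 was lower in each, Sall1 in G-HD (0.635, 0.477 to 0.841) and Cd33 in MPG-HD (0.544, 0.353 to 0.833). Of all genes 3.91% and 3.94% were that much lower. The medians of the list were -0.25 and -0.06, against 0.033 and 0.000671 over all genes. Cx3cr1 stood at 0.915 and 0.877 of PBS, with intervals that include 1. Cst3, the secreted protease inhibitor cystatin C, stood at 30950, 25862 and 26617 CPM. In the other phagocytes, 8 of 19 homeostatic genes were lower in G-HD. Among 18 lineage transcription factors, Runx1 stood at 27.1, 50.4 and 28.9 CPM and Klf6 at 164, 96.9 and 89.6 CPM. Spi1, the master factor of myeloid cells, stood at 249, 297 and 288 CPM.

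C1qa, a chain of the first complement component that tags material for removal, stood at 10415, 10232 and 8515 CPM. None of 15 complement genes passed 1.5-fold in G-HD, and 2 were lower in MPG-HD, C2 (0.555) and Cfb (0.572). Of 33 lysosome genes, Lamp1 and Mcoln1 were higher and Npc1 lower in G-HD, and Ctss was lower in MPG-HD. Among all genes measured, 5.95% were at least 1.5-fold higher and 3.91% lower in G-HD, and 3.78% and 3.94% in MPG-HD. Of 16 phagocytosis and scavenger receptors, Mrc1 was higher in both and Fcgr1a lower in MPG-HD. Lamp1, a major membrane glycoprotein of lysosomes, stood at 480, 1006 and 677 CPM, a ratio of 2.09 (1.96 to 2.24) in G-HD and 1.41 (1.32 to 1.51) in MPG-HD. It was higher in the other phagocytes as well, at 1.86 and 1.25. Trem2, a lipid-sensing receptor of activated microglia, stood at 1073, 1077 and 1114 CPM. Of 25 disease-associated phagocyte genes measured, Ccl4, Lilrb4 and Timp2 were higher in G-HD and Lpl in MPG-HD, and none was lower in either. Spp1, osteopontin, stood at 1763, 2386 and 2297 CPM, and Igf1, a growth factor for neurons and myelin, at 686, 818 and 880 CPM, below the 1.5-fold bound. Cst7, often given as a mark of that state in mice, had 0, 1 and 6 UMIs.

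Chemokines and cytokines differed gene by gene. Of 15 chemokines measured, 3 were higher and 2 lower in G-HD, and 1 higher and 5 lower in MPG-HD. The shares over all genes were 5.95% higher and 3.91% lower in G-HD, and 3.78% and 3.94% in MPG-HD. Ccl2, which draws monocytes, stood at 527, 316 and 265 CPM, with ratios of 0.599 (0.549 to 0.654) and 0.503 (0.464 to 0.546), against 1.02 and 1.15 in the other phagocytes. Ccl4 stood 1.71-fold higher in G-HD (1.65 to 1.78). Cxcl13, which draws B cells, stood at 56.9, 130.2 and 18.6 CPM, and 1 cell held 125 of its 328 UMIs in G-HD. Cxcl14 stood at 49.0, 83.4 and 122 CPM in microglia and at 214, 150 and 94.9 CPM in the other phagocytes, so the order of the libraries was opposite in the 2 classes. Without the 6% of microglia with the most UMIs its log2 ratio for MPG-HD over PBS was 1.96 in place of 1.31. Tnf, an early inflammatory cytokine, stood at 101, 52.4 and 49.8 CPM, ratios of 0.519 (0.418 to 0.641) and 0.493 (0.407 to 0.596), close to 0.433 and 0.483 in the other phagocytes. Il1b stood at 1722, 2345 and 1493 CPM, with ratios of 1.36 (1.31 to 1.42) and 0.867 (0.834 to 0.902). Of the NF-kB targets, 1 of 17 was lower in G-HD and 4 of 18 in MPG-HD (Nfkbiz, Birc3, Cflar and Plaur), with medians of 0.00101 and -0.30. Immediate early genes, which cell handling can raise, had 1 higher and 1 lower of 23 in G-HD and 2 lower in MPG-HD, and Fos stood at 1850, 1846 and 1841 CPM.

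A few genes stood apart from PBS in the same direction in both treated libraries, a pattern that the shared PBS library alone can give. Tgfb1, an anti-inflammatory growth factor on which microglia depend, stood at 110, 268 and 230 CPM, with ratios of 2.45 (2.13 to 2.82) and 2.09 (1.83 to 2.40). Ch25h, which makes 25-hydroxycholesterol, stood at 523, 292 and 275 CPM, ratios of 0.558 (0.510 to 0.611) and 0.526 (0.485 to 0.570). Both genes differed elsewhere too: in the other phagocytes Tgfb1 stood at 2.13 and 1.75, and Ch25h at 0.450 and 0.718.

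Of 10 and 11 purinergic and channel genes measured none passed 1.5-fold over PBS, and P2ry6, a UDP receptor that starts phagocytosis, stood at 173, 177 and 194 CPM. Khk, the first enzyme of fructose use after uptake by Slc2a5, had 20, 16 and 26 UMIs, or 7.54, 6.35 and 6.89 CPM, against 4.50, 6.14 and 6.00 CPM in the other phagocytes. Of glucose and hypoxia genes, Hk3 was higher and Egln3 lower in G-HD (of 17), and Egln3 lower in MPG-HD (of 18). The ferritin chain Fth1 stood at 1.12 times PBS in G-HD and 1.04 in MPG-HD. Of 19 and 20 lipid genes, 3 were lower in each treated library, Ch25h in both, with Npc1 and Srebf2 in G-HD and Soat1 and Insig1 in MPG-HD, and 1 was higher, Lpl in MPG-HD. Over all genes 3.91% and 3.94% were that much lower, and 5.95% and 3.78% that much higher.

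**Figure D5:**
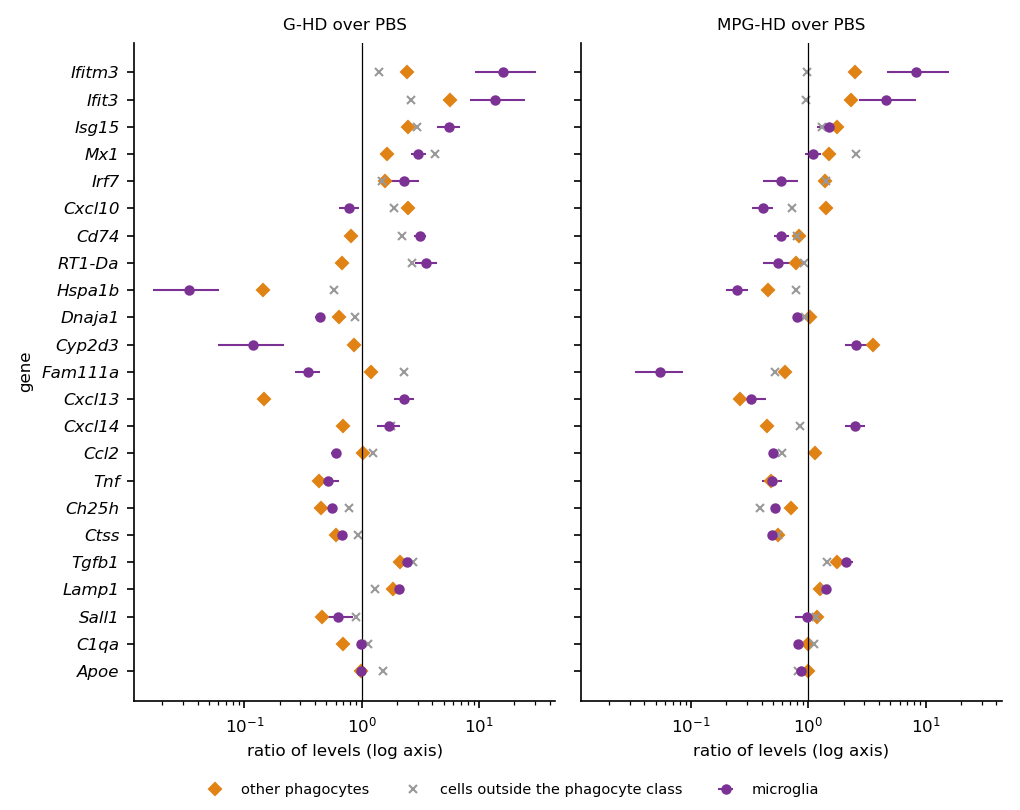
Ratios of levels on a log axis for 23 genes described in the text, G-HD over PBS (left) and MPG-HD over PBS (right); circles are microglia with 95% intervals for counting error, diamonds other phagocytes and crosses cells outside the phagocyte class, drawn where a gene was measured. Hspa1b at 0.0339 and Ifitm3 at 16.1 are the extremes among microglia in G-HD, and C1qa and Apoe at the bottom lie near 1 in G-HD.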

How the data were processed

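The deposited matrices hold raw UMI counts for each gene and barcode, per the file headers. Cell Ranger 3.0.2 is listed, with mouse builds (GRCm38, mm10), per the submitters' processing notes. The matrix header gives 3.1.0, and the 25199 features are all rat Ensembl genes; the rat build is not given in the sources used here. Promoter letters are RefSeq's.

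Cells needed 200 genes and no more than 20% mitochondrial UMIs. No doublets were removed. UMIs were summed over the microglia of a library and scaled to CPM; ratios carry exact conditional 95% intervals, shares exact Clopper-Pearson intervals. A gene counted as measured from 50 UMIs over the compared sums. Named genes differed at least 2-fold, in the same direction with every cell weighing the same, with at most 50% of the higher library's UMIs in 1 cell, ranked by the interval bound nearest 1; the first 10 in each direction were taken against PBS and the first 5 for MPG-HD over G-HD. Features lacking a symbol and genes for haemoglobin, ribosomal proteins or mitochondrial RNAs could not be named. Lists count genes from 1.5-fold. A few single genes of the lists and of the ranking are not reported here. Cells were thinned to 2000 UMIs for shares, leaving out shallower cells (8, 24 and 13 microglia). Depth was 10749.5 to 11692 UMIs per microglial cell (medians). The scripts were tested on simulated data. Python 3.11.15, NumPy 2.4.6, SciPy 1.17.1 and pandas 2.3.3 were used. The members, lists and tests were chosen with earlier results of these data known. Alternatives covered the cell filter, the margin and z-scores, cell weights, depth, possible doublets, the count minimum and the scaling.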

Additional observations from a re-analysis of the deposited data

Results flagged for a closer look

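For 2 genes named by the rule, microglia and the other phagocytes stood on opposite sides of 1. Cxcl14 for MPG-HD over PBS stood at 2.48 in microglia and at 0.443 in the other phagocytes. Cxcl13 for MPG-HD over G-HD stood at 0.142 in microglia and at 1.78 in the other phagocytes; 1 G-HD cell held 125 of 328 UMIs, and without the top cell of each library the log2 ratio was -2.42 in place of -2.81, and after thinning it was -3.80. With 1 library per treatment, the difference between the classes was not tested.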

How the results depend on the processing

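No named gene changed direction under the 10 alternatives run for single genes. Equal cell weights and leaving out the top cell could not reverse a named gene. The conditions for being named already required the first and limited 1 cell to 50% of the UMIs. After thinning, 31 values stayed within counting error and 17 moved, and a gene left without a UMI in a library gave no value. Lists had 12 alternatives and shares 6; list medians changed sign in 34 cases, all of medians at most 0.17 in size as reported. With A at least 0.25 above the next score, microglia were 28.5%, 17.4% and 26.3% of phagocytes in PBS, G-HD and MPG-HD, the order kept; other settings for cells moved these shares by less than their interval. Counts of genes at least 2-fold apart depended on the settings. They were 82 higher and 49 lower for G-HD over PBS, 55 and 48 for MPG-HD over PBS, and 44 and 64 for MPG-HD over G-HD. With at least 20 UMIs they were 196 and 139, 191 and 132, 163 and 165, and with at least 200 UMIs 30 and 6, 12 and 13, 7 and 27, since fewer genes are then measured. After thinning to 2000 UMIs they were 37 and 14, 18 and 15, 13 and 29, since fewer UMIs are left. With every cell weighing the same they were 126 and 91 for G-HD over PBS, 81 lower for MPG-HD over PBS, and 76 and 120 for MPG-HD over G-HD; the cause was not tested. Without cells carrying other types' markers 35 were higher for MPG-HD over PBS, and without the 6% of cells with the most UMIs 26 were higher for MPG-HD over G-HD. For single named genes, 458 values stayed within counting error and 40 moved with no change of direction. The interferon median for G-HD over PBS ranged from 0.76 to 1.22. No paired analysis was possible because each treatment has 1 library. Depth limits genes under 50 UMIs and the shares per cell.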
